A study of Mus musculus with 3 samples.

Results

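Imprinted growth genes are described here in nephron progenitors, the mesenchymal cells of the fetal kidney that renew themselves and give rise to the nephrons. The members are the 10 genes Cdkn1c, Nnat, Mest, Peg3, Grb10, H19, Igf2, Dlk1, Meg3 and Plagl1, found by symbol among the 27998 genes of the count matrix, and all 10 were found. The cells came from mouse kidneys at E14.5 of the strain Six2GFP+, in which green fluorescence follows the progenitor gene Six2, and were sorted by that fluorescence with dead cells and debris gated out. Litters were pooled into 3 tubes before sorting, so an animal cannot be followed, and each tube gave 1 single-cell library on the 10x system. The labels put the 3 libraries in 1 group with no treatment and no mutant. All comparisons are therefore between cells of the same tubes, grouped by their own raw counts of unique molecular identifiers (UMIs, each standing for 1 captured RNA molecule).

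An imprinted gene is transcribed mainly from the copy inherited from 1 parent, and many such genes set fetal growth. Cdkn1c, Grb10, H19 and Meg3 are transcribed mainly from the maternal copy in most mouse tissues, and Nnat, Mest, Peg3, Igf2, Dlk1 and Plagl1 from the paternal copy. Loss of Cdkn1c in mice disturbs growth of the renal medulla, and raised IGF2 is a known feature of Wilms tumour, a human cancer of nephron progenitor type. UMIs carry no parental origin, so every value below is the sum over both copies.

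Several members share a chromosome. On the mm10 genome, H19 (ENSMUSG00000000031, chromosome 7, 142575529 to 142578143), Igf2 (ENSMUSG00000048583, chromosome 7, 142650766 to 142666816) and Cdkn1c (ENSMUSG00000037664, chromosome 7, 143458339 to 143461050) lie in neighbouring imprinted domains, and Peg3 (ENSMUSG00000002265) starts at 6703892 and ends at 6730431 on the same chromosome. Dlk1 (ENSMUSG00000040856, chromosome 12, 109452823 to 109463336) and Meg3 (ENSMUSG00000021268, chromosome 12, 109541001 to 109571726) are neighbours. Nnat (ENSMUSG00000067786) is on chromosome 2, Mest (ENSMUSG00000051855) on 6, Plagl1 (ENSMUSG00000019817) on 10 and Grb10 (ENSMUSG00000020176) on 11. H19 and Meg3 are annotated as long noncoding RNAs and the other 8 as protein-coding.

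RefSeq promoter windows (GRCm38.p6, 250 bases before to 50 after a start, 300 in all) were given for 8 of the 10 members, and Cdkn1c and H19 had none in that table. CG dinucleotides, the sites at which DNA methylation marks an imprint, are shown in capitals for the members that changed between cell groups and have a single window. The Nnat window (chr2:157559828-157560127, plus strand) held 17 CG, the Peg3 window (chr7:6730370-6730669, minus strand) 13 and the Dlk1 window (chr12:109452573-109452872, plus strand) 9, against a median of 7 over 32851 windows.
Nnat: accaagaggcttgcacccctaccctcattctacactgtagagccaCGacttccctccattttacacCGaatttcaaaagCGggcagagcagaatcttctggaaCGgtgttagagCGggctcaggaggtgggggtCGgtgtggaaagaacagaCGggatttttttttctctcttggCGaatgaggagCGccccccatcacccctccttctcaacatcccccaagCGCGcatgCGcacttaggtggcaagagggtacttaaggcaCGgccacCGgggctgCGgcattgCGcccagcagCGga
Peg3: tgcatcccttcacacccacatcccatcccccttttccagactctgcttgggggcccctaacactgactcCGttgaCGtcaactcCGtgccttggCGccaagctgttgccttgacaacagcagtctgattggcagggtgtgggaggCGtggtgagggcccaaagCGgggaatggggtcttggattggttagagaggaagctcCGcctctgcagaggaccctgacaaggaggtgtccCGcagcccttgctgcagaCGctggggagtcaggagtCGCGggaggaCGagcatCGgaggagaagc
Dlk1: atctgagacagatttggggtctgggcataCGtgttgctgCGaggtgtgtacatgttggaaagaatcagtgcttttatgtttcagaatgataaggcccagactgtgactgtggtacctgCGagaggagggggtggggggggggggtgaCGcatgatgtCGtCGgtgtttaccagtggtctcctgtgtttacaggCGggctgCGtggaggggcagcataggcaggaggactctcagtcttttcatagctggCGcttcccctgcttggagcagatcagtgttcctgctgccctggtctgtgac
Of the 15 windows of members, 9 held at least 13 CG, as did 37.9% of all windows. The 9 include Mest windows starting at chr6:30737800 and chr6:30737803, which overlap almost wholly. They also include windows of Peg3 and Meg3 with exactly 13, so the count depends on the cut and is a description. GGGGCCCC, the core that the Plagl1 protein is known to bind and its own reverse complement, was searched on both strands. It stood in 1 of the 15 windows, that of Peg3, beginning at base 50 of the sequence shown, and in 1.08% of all windows. Methylation and binding were not measured here.

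H19 is also the precursor of a microRNA pair, whose mature sequences are shown with the seed (bases 2 to 8) in capitals because H19 is the noncoding member that changed below. In RefSeq (GRCm38.p6), miR-675-5p lies at chr7:142577112-142577133 and miR-675-3p at chr7:142577078-142577099, both on the minus strand within H19.
miR-675-5p: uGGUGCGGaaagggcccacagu
miR-675-3p: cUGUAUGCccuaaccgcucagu
Their seeds differ. The libraries count polyadenylated RNA from the transcript end, so the values below are of H19 and not of the microRNAs.

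Of 7924 barcodes, 7896 passed the cell filters, with 3023, 2759 and 2114 cells and 50882927, 35264096 and 35816105 UMIs in libraries 1, 2 and 3. Libraries 1, 2 and 3 are named by the barcode suffix, and 22 barcode sequences occurred in more than 1 library. Cells with at least 1 Lhx1 UMI were called Lhx1+ (79 cells, 31, 29 and 19 by library), cells with Wnt4 but no Lhx1 were called Wnt4+ Lhx1- (413 cells, 200, 103 and 110), and cells with Six2 but neither of the others were called Six2+ Wnt4- (6011 cells, 2173, 2157 and 1681). Wnt4 encodes the signal that starts the change from mesenchyme to epithelium, and Lhx1 a LIM homeobox factor of the first epithelial vesicles. A further 1393 cells had none of the selecting genes. Median UMIs per cell were 16238 in Lhx1+, 18385 in Wnt4+ Lhx1- and 14742 in Six2+ Wnt4- cells.

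The groups were checked against marker lists. The summed level of 7 early nephron markers (Jag1, Pou3f3 and others) was 159 to 260 counts per 1000000 UMIs (CPM) in Lhx1+ cells, 12.2 to 18.2 CPM in Wnt4+ Lhx1- cells and 4.28 to 6.92 CPM in Six2+ Wnt4- cells. That of 7 uncommitted progenitor markers (Cited1, Eya1 and others) was 608 to 1144 CPM in Lhx1+, 815 to 1301 CPM in Wnt4+ Lhx1- and 1164 to 1701 CPM in Six2+ Wnt4- cells. The Lhx1+ group was mixed. Six2 was found in 48 of its 79 cells, 55 held no Wnt4 UMI, and a single Lhx1 UMI defined 47. At least 3 UMIs of a list of 6 endothelial markers were carried by 6 of them, against 0 Wnt4+ Lhx1- and 3 Six2+ Wnt4- cells. That list summed to 22.4 to 53.5 CPM in Lhx1+ and 1.53 to 7.24 CPM in Six2+ Wnt4- cells. Nearly all of it in Lhx1+ cells was Cldn5, a tight junction gene (22.4, 53.5 and 31.3 CPM in libraries 1, 2 and 3), while Pecam1, Cdh5, Tie1 and Emcn were at 0, so Lhx1+ cells with at least 3 UMIs of the list are called Cldn5 cells below and not endothelial. The 8 ureteric markers summed to 100.2 to 377 CPM in Lhx1+ and 60.3 to 81.8 CPM in Six2+ Wnt4- cells.

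Together the 10 genes took 3375, 6367 and 3690 CPM in Lhx1+ cells of libraries 1, 2 and 3, 3967, 5466 and 3964 CPM in Wnt4+ Lhx1- cells and 5387, 7192 and 5851 CPM in Six2+ Wnt4- cells. Library 2 was the highest in each group. The members split by direction, not by parent of origin. In Wnt4+ Lhx1- cells against Six2+ Wnt4- cells, 5 members were lower (Cdkn1c and Grb10 of the maternal copy, Nnat, Mest and Peg3 of the paternal copy) and 3 were higher (H19 of the maternal copy, Igf2 and Dlk1 of the paternal copy), while Meg3 and Plagl1 did not pass the test. Tests were edgeR quasi-likelihood tests on counts summed per library and group, with the library as a block and Benjamini-Hochberg adjustment over the 10240 genes tested, at a threshold of 0.05. In this comparison 10.2% of all genes passed, 5.34% lower and 4.86% higher, beside 8 of 10 members. The members were chosen with earlier results of these data known, so their count is a description and no test of the set. The 3 libraries of the groups did not overlap for 6 members, and for 10.2% of all genes tested. The median log2 change was -0.23 over the members and -0.0094 over all genes tested. The background count of 1045 genes fell to 269 without library 1 and 364 without library 3, while 8 members passed without any 1 library. Since the library is a block, p-values rest on differences between cell groups of 1 tube. The error they are set against is estimated by edgeR with information shared over genes, as is the SE. It is therefore not the spread of a gene's own ratios over the 3 tubes. For Cdkn1c in Lhx1+ against Six2+ Wnt4- cells those log2 ratios were -0.88, -0.30 and -1.34, beside an SE of 0.10. The tubes are pools run side by side, so their spread may be technical.

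**Figure D1:**
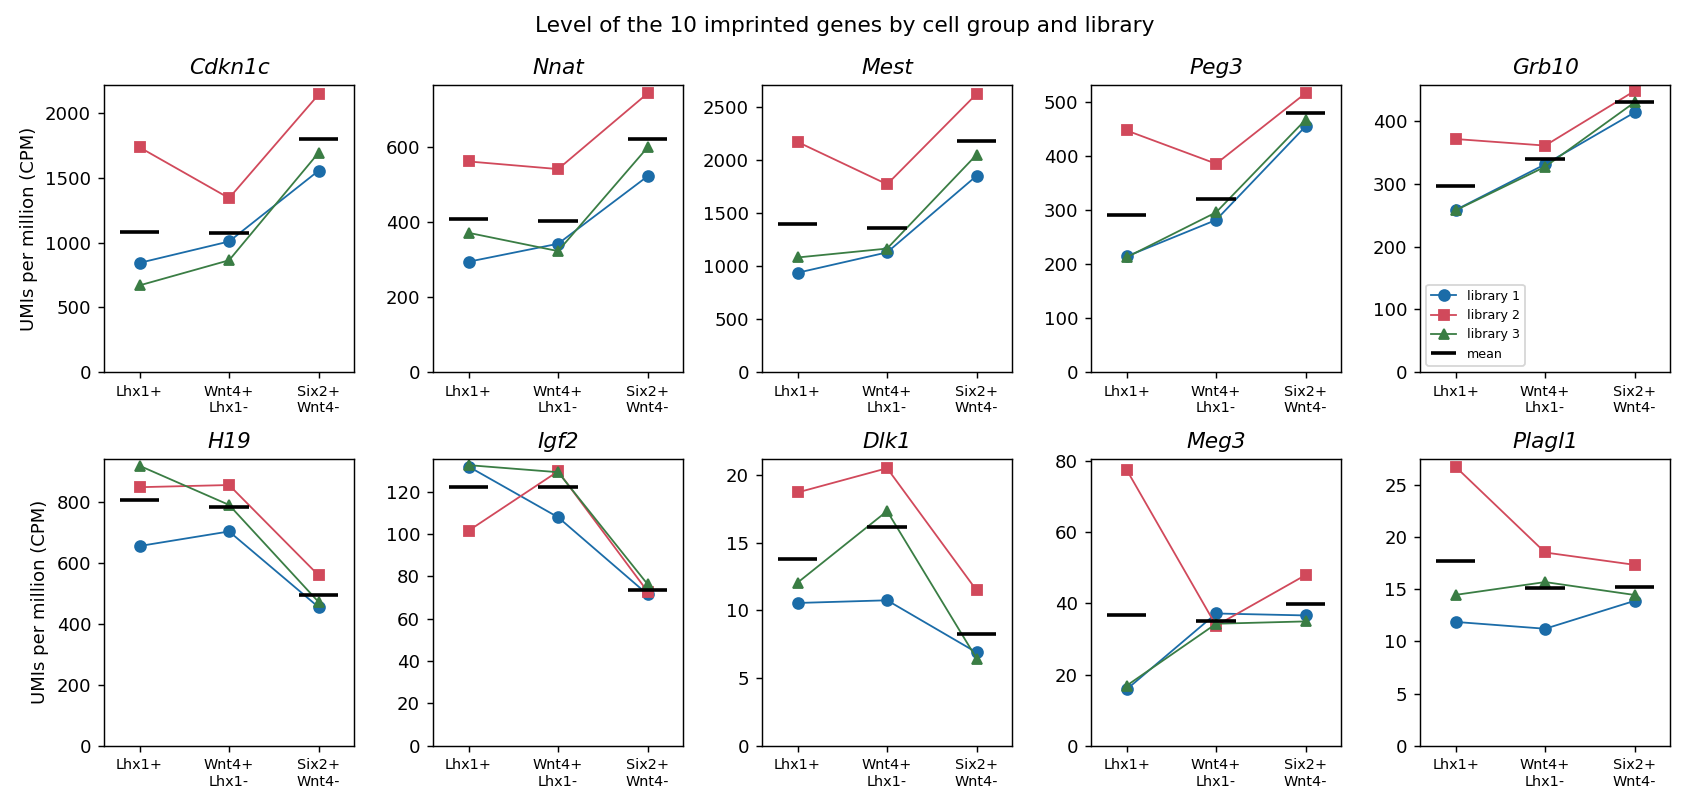
Level of each gene in CPM (vertical axis, from 0) in Lhx1+, Wnt4+ Lhx1- and Six2+ Wnt4- cells. Points joined by lines are the 3 libraries and black bars their means. Cdkn1c, Nnat, Mest, Peg3 and Grb10 were lower and H19 and Igf2 higher in both groups on the left than in Six2+ Wnt4- cells, Dlk1 passed as higher in Wnt4+ Lhx1- cells but not in Lhx1+ cells, and Meg3 rests on library 2 in Lhx1+ cells (77.5 CPM, against 15.8 and 16.9 in the other libraries).

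Cdkn1c encodes p57, an inhibitor of cyclin-dependent kinases that holds cells out of the cycle. Its level in libraries 1, 2 and 3 was 844, 1738 and 670.1 CPM in Lhx1+ cells, 1009.7, 1345 and 864 CPM in Wnt4+ Lhx1- cells and 1557, 2147 and 1696 CPM in Six2+ Wnt4- cells. All Wnt4+ Lhx1- values lay below all Six2+ Wnt4- values, whereas the Lhx1+ value of library 2 overlapped them. The level in Wnt4+ Lhx1- cells was 0.59-fold that in Six2+ Wnt4- cells. This is a log2 change of -0.76 ± 0.08 (SE of the fit to 3 libraries, adjusted p = 1.33e-06). In Lhx1+ cells the log2 change against Six2+ Wnt4- cells was -0.80 ± 0.10 (adjusted p = 1.25e-05).

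Mest, which encodes a membrane protein of the hydrolase fold family, stood at 938, 2174 and 1082 CPM in Lhx1+ cells, 1131, 1774 and 1166 CPM in Wnt4+ Lhx1- cells and 1854, 2628 and 2054 CPM in Six2+ Wnt4- cells. Wnt4+ Lhx1- and Six2+ Wnt4- cells did not overlap, and library 2 again overlapped in Lhx1+ cells. The log2 change was -0.71 ± 0.07 in Wnt4+ Lhx1- cells (adjusted p = 2.94e-07) and -0.72 ± 0.08 in Lhx1+ cells (adjusted p = 2.88e-06). Nnat, which encodes a small proteolipid of the endoplasmic reticulum, stood at 294, 562 and 371 CPM in Lhx1+ cells, 342, 541 and 322 CPM in Wnt4+ Lhx1- cells and 522, 743 and 599 CPM in Six2+ Wnt4- cells. It was lower in Wnt4+ Lhx1- cells of every library, though the groups overlapped across libraries. Its log2 change was -0.66 ± 0.06 in Wnt4+ Lhx1- cells (adjusted p = 1.19e-07) and -0.65 ± 0.09 in Lhx1+ cells (adjusted p = 1.9e-05).

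Peg3, a zinc finger protein gene, stood at 214, 447 and 212 CPM in Lhx1+ cells, 281, 385 and 295 CPM in Wnt4+ Lhx1- cells and 454, 516 and 467 CPM in Six2+ Wnt4- cells. Neither group overlapped the Six2+ Wnt4- values. The log2 change was -0.60 ± 0.07 in Wnt4+ Lhx1- cells (adjusted p = 4.48e-06) and -0.80 ± 0.11 in Lhx1+ cells (adjusted p = 4.67e-05). Grb10 encodes an adaptor that binds the insulin and IGF1 receptors and dampens their signal. It stood at 259, 372 and 258 CPM in Lhx1+ cells, 331, 361 and 327 CPM in Wnt4+ Lhx1- cells and 414, 448 and 430.4 CPM in Six2+ Wnt4- cells. Neither Lhx1+ nor Wnt4+ Lhx1- values overlapped the Six2+ Wnt4- values. Grb10 changed by -0.35 ± 0.05 on the log2 scale in Wnt4+ Lhx1- cells (adjusted p = 6.87e-05), the smallest size among the 5 lower members.

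H19 is a noncoding RNA that shares enhancers with Igf2 on the opposite parental copy. It stood at 657, 850.3 and 921 CPM in Lhx1+ cells, 705, 857 and 792 CPM in Wnt4+ Lhx1- cells and 456, 560.4 and 473 CPM in Six2+ Wnt4- cells. Every value of the Lhx1+ and Wnt4+ Lhx1- cells lay above every Six2+ Wnt4- value. The level was 1.58-fold in Wnt4+ Lhx1- cells, a log2 change of 0.66 ± 0.05 (adjusted p = 6.33e-09), and the log2 change in Lhx1+ cells was 0.68 ± 0.06 (adjusted p = 1.08e-07).

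Igf2, the fetal insulin-like growth factor, moved the same way as H19. It stood at 132, 102 and 133 CPM in Lhx1+ cells, 108, 129.7 and 129 CPM in Wnt4+ Lhx1- cells and 71.5, 72.9 and 76.3 CPM in Six2+ Wnt4- cells. Values of the Lhx1+ and the Wnt4+ Lhx1- cells did not overlap the Six2+ Wnt4- values, though they overlapped each other. The log2 change was 0.70 ± 0.07 in Wnt4+ Lhx1- cells (adjusted p = 1.66e-07) and 0.77 ± 0.12 in Lhx1+ cells (adjusted p = 0.00021). Igf2 did not pass in Lhx1+ cells once cells were thinned to 5000 UMIs (adjusted p = 0.495), without library 1 (0.0721), or when Six2 was also required of Lhx1+ cells (0.309).

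Dlk1, a membrane protein related to the Notch ligands, was scarce at 10.6, 18.7 and 12.1 CPM in Lhx1+ cells, 10.8, 20.5 and 17.3 CPM in Wnt4+ Lhx1- cells and 6.89, 11.5 and 6.44 CPM in Six2+ Wnt4- cells. It was higher in Wnt4+ Lhx1- cells in every library, with overlap across libraries, and its log2 change was 0.94 ± 0.17 (adjusted p = 0.000849). In Lhx1+ cells the log2 value of 0.72 ± 0.37 did not pass (adjusted p = 0.332). Meg3, the noncoding neighbour of Dlk1, stood at 15.8, 77.5 and 16.9 CPM in Lhx1+ cells, 37.2, 33.7 and 34.3 CPM in Wnt4+ Lhx1- cells and 36.6, 48.0 and 34.9 CPM in Six2+ Wnt4- cells. The Lhx1+ value of library 2 rested on 1 cell, which held 25 of the 29 Meg3 UMIs of its 29 Lhx1+ cells. That cell was among the 3 Cldn5 cells of the library, in which Meg3 stood at 496 CPM, against 9.33 CPM in the other Lhx1+ cells. Meg3 did not pass in Wnt4+ Lhx1- cells (log2 -0.11 ± 0.14, adjusted p = 0.688) or in Lhx1+ cells (-0.33 ± 0.29, adjusted p = 0.636). Without all cells holding at least 3 UMIs of that list, its log2 change in Lhx1+ cells was -1.35 (adjusted p = 0.00535), and without library 2 it was -1.17 (adjusted p = 0.00811).

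Plagl1 encodes a zinc finger factor that is known to regulate other imprinted genes in mouse cells. It stood at 11.9, 26.7 and 14.46 CPM in Lhx1+ cells, 11.2, 18.5 and 15.7 CPM in Wnt4+ Lhx1- cells and 13.9, 17.3 and 14.4 CPM in Six2+ Wnt4- cells. All groups overlapped. Its log2 values of -0.07 ± 0.16 in Wnt4+ Lhx1- cells (adjusted p = 0.854) and 0.13 ± 0.30 in Lhx1+ cells (adjusted p = 0.901) did not pass. At this level a change of the size of its error, or somewhat larger, would not pass the threshold either.

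**Figure D2:**
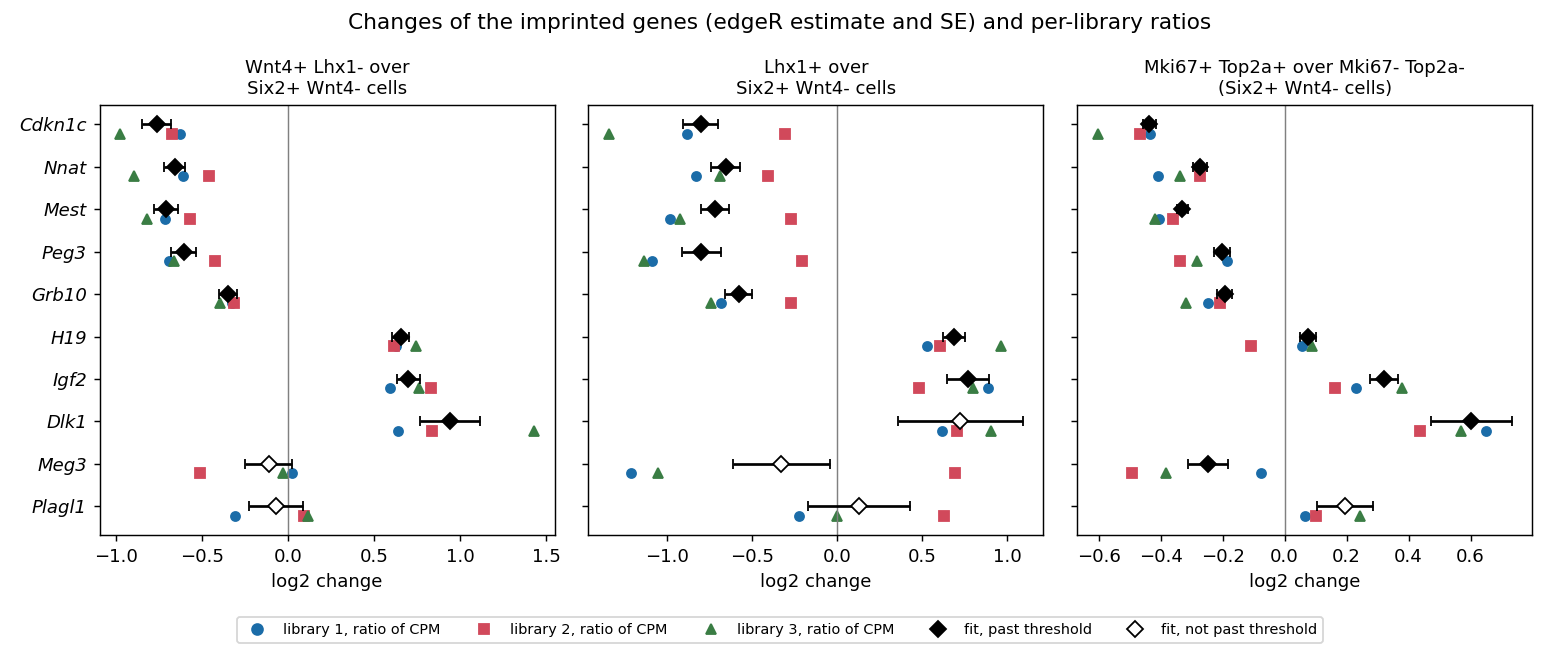
Log2 change of each gene (horizontal axis) in 3 comparisons, as the edgeR estimate with its SE (diamonds, filled where past the threshold) and as the ratio of CPM in each library (coloured points). In the left panel the 5 lower genes run from -0.76 for Cdkn1c to -0.35 for Grb10, and H19, Igf2 and Dlk1 lie at 0.66, 0.70 and 0.94.

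Against Six2+ Wnt4- cells, Lhx1+ cells had 7 of 10 members past the threshold, the 5 lower ones named above and H19 and Igf2 higher, where 5.17% of all genes passed (1.86% lower and 3.31% higher). The groups did not overlap for 4 members, Peg3, Grb10, H19 and Igf2, and for 12.8% of all genes tested. This comparison shares its Six2+ Wnt4- counts with the previous one. Without library 1 the members past the threshold were 4, with Peg3 (adjusted p = 0.0888), Grb10 (0.0564) and Igf2 (0.0721) no longer among them. Grb10 did not pass when Six2 was also required of Lhx1+ cells (log2 -0.25, adjusted p = 0.304), nor Nnat on cells thinned to 5000 UMIs (-0.42, adjusted p = 0.0679). In cells with no Mki67 and no Top2a, 0 of the 8 members that could be tested passed in edgeR's test, with 5 at an unadjusted p under 0.05, and 2 genes passed in all. Only 5, 15 and 5 Lhx1+ cells of libraries 1, 2 and 3 entered there, which limits what could pass. The log2 values there were -0.42 for Cdkn1c, -0.36 for Nnat, -0.32 for Mest, -0.17 for Peg3 and -0.13 for Grb10, and 0.40 for H19 and 0.72 for Igf2. Lhx1+ against Wnt4+ Lhx1- cells gave 0 of 10 members past the threshold in edgeR and in DESeq2, with 1 member at an unadjusted p under 0.05, where 1.15% of all genes passed (0.156% lower and 0.996% higher). The groups overlapped for every member, whereas 8.86% of all genes did not overlap. The log2 values ran from -0.23 to 0.19 with SEs of 0.07 to 0.36. Without library 2, 5 members were lower in Lhx1+ than in Wnt4+ Lhx1- cells, and 4 were when only cells with Mki67 and Top2a entered. Leaving out a library, 35 to 162 of all genes passed, and the count for cells with Mki67 and Top2a is given below. The Lhx1+ cells were also uneven. Cdkn1c averaged 1396 ± 554 CPM in those with 1 Lhx1 UMI and 746 ± 440 CPM with 2 or more, and Mest 1750 ± 547 and 1057 ± 633 CPM (SD, n = 3). Cells with 1 Lhx1 UMI were 17 of 31, 21 of 29 and 9 of 19 in libraries 1, 2 and 3. Cells with both Mki67 and Top2a were 51.6%, 17.2% and 47.4%. The part of this mixture in the comparison was not tested. A p that misses the threshold in 79 Lhx1+ cells does not show that the 2 groups are alike.

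The levels of Cdkn1c, Mest and H19 followed the number of Wnt4 UMIs in a cell. Among cells without Lhx1, Cdkn1c stood at 1557, 2147 and 1696 CPM with no Wnt4 UMI in Six2+ cells, at 1256, 1480 and 1171 CPM with 1 UMI (281 cells) and at 626, 718 and 540.1 CPM with 2 or more (132 cells). Mest was at 1854, 2628 and 2054 CPM, at 1370.2, 1942 and 1509 CPM and at 756, 991 and 804 CPM in the same order. H19 ran the other way, at 456, 560.4 and 473 CPM, at 592, 796 and 690.3 CPM and at 880.3, 1141 and 899 CPM. In each library these 3 genes differed stepwise, whereas Plagl1 did not, with means of 15.2, 14.6 and 17.0 CPM. With 2 or more Wnt4 UMIs required, the log2 change against Six2+ Wnt4- cells was -1.48 for Cdkn1c, -1.32 for Mest, -1.29 for Nnat, -0.99 for Peg3 and -0.55 for Grb10, and 0.96 for both H19 and Igf2. Median UMIs per cell also differed, at 14742, 16884 and 21288 in the same order, as did the share of cells with both Mki67 and Top2a, transcripts of dividing cells, at 26.5% ± 1.56, 38.2% ± 7.05 and 48.5% ± 9.40 (SD, n = 3). The part of that share in these steps was not tested. On cells thinned to 5000 UMIs, 7 members passed in Wnt4+ Lhx1- against Six2+ Wnt4- cells, and Dlk1 was too low to be tested.

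**Figure D3:**
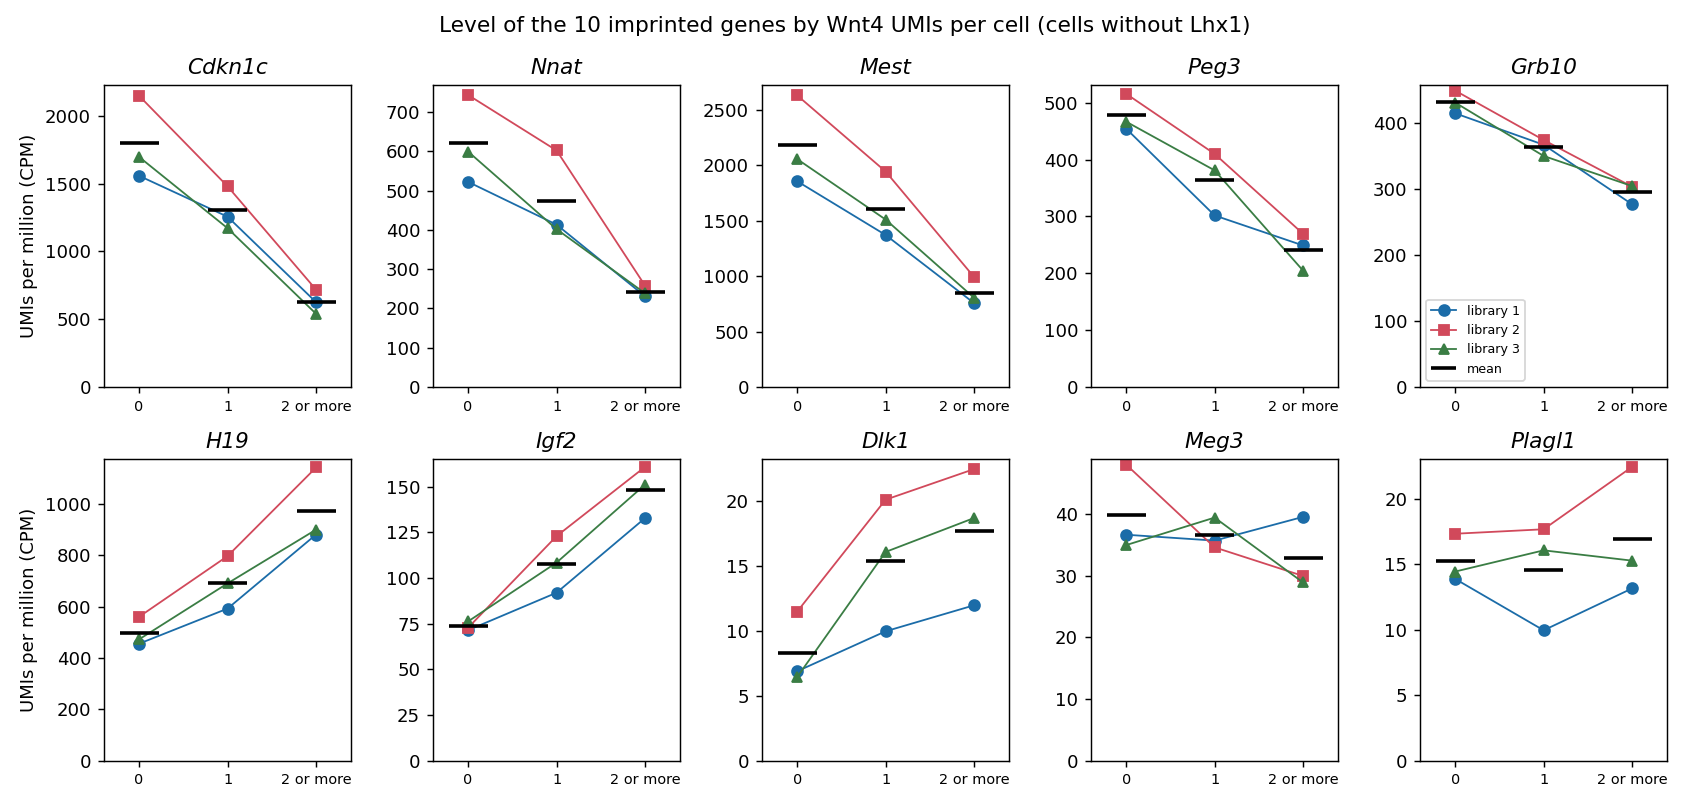
Level of each gene in CPM (vertical axis, from 0) by the number of Wnt4 UMIs per cell (0 in Six2+ cells, 1, 2 or more), in cells without Lhx1. Lines are libraries and bars means. Cdkn1c had means of 1799.9, 1302 and 628 CPM from left to right and H19 means of 496, 693 and 974 CPM.

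Whether the levels go with proliferation was asked within Six2+ Wnt4- cells, by setting 1596 cells with both Mki67 and Top2a against 2948 with neither. Cells with both made up 38.7% ± 18.7 of Lhx1+ cells, 41.6% ± 4.74 of Wnt4+ Lhx1- cells and 26.5% ± 1.56 of Six2+ Wnt4- cells (SD, n = 3). Median UMIs per cell were 19929.5 in the 1596 cells and 12928 in the 2948, so the split also differs in depth. Of all genes, 52% passed between these cells (26.2% higher and 25.8% lower), so that the 9 of 10 members past the threshold say little about the members as a set. Cdkn1c stood at 1341, 1785 and 1349 CPM in Mki67+ Top2a+ cells, against 1813, 2467 and 2048 CPM in Mki67- Top2a- cells. The groups did not overlap, as for 4 members in all and 25.4% of all genes tested, and the log2 change was -0.44 ± 0.02 (adjusted p = 3.19e-19). Igf2 stood at 76.9, 75.6 and 84.8 CPM in Mki67+ Top2a+ cells, against 65.5, 67.5 and 65.2 CPM in Mki67- Top2a- cells. These did not overlap either, with a log2 change of 0.32 ± 0.05 (adjusted p = 2.27e-07).

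The remaining members changed by less than Cdkn1c or on few counts. Mest (-0.33 ± 0.02, adjusted p = 5.09e-18), Nnat (-0.27 ± 0.02, adjusted p = 2.38e-12), Peg3 (-0.20 ± 0.02, adjusted p = 1.61e-08) and Grb10 (-0.19 ± 0.02, adjusted p = 2.41e-08) were lower in Mki67+ Top2a+ cells. Meg3 was lower (-0.25 ± 0.07, adjusted p = 0.00179) and Dlk1 higher (0.60 ± 0.13, adjusted p = 0.000195), but neither passed without stromal-marker cells (adjusted p = 0.399 for Meg3 and 0.0739 for Dlk1) or by DESeq2 (0.151 and 0.0526). Dlk1 did not pass on thinned cells either (log2 0.24, adjusted p = 0.487). H19 differed little, with a log2 change of 0.08 ± 0.03 (adjusted p = 0.0185) and a lower level in library 2, and did not pass without library 1 or library 3. Plagl1 did not pass (adjusted p = 0.073).

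**Figure D4:**
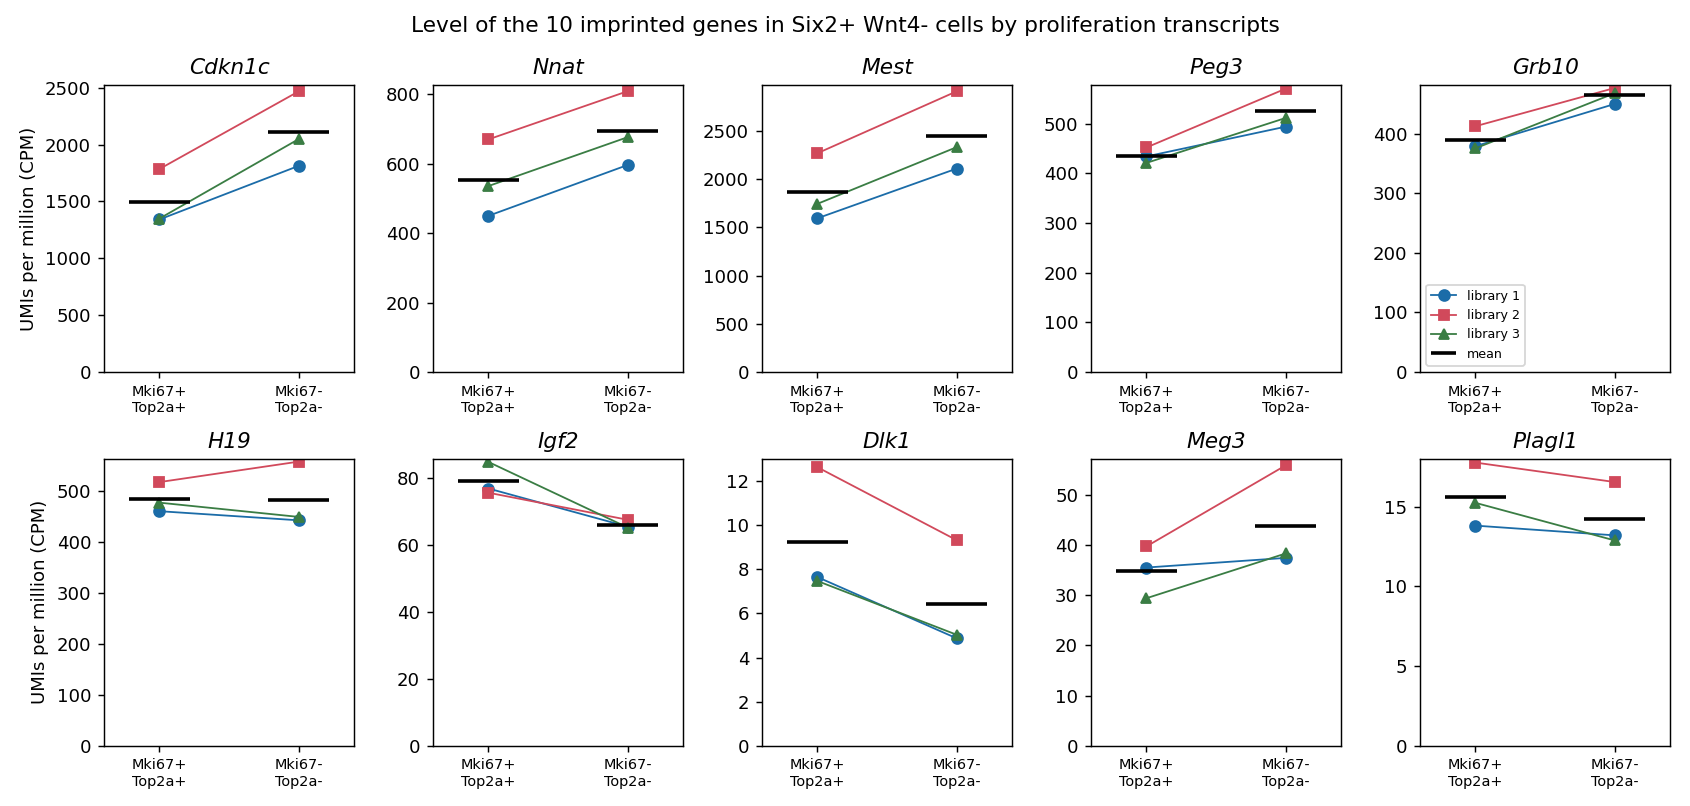
Level of each gene in CPM (vertical axis, from 0) in Mki67+ Top2a+ and Mki67- Top2a- cells among Six2+ Wnt4- cells. Lines are libraries and bars means. Cdkn1c averaged 1492 CPM in Mki67+ Top2a+ and 2109 CPM in Mki67- Top2a- cells, while H19 averaged 484 and 482 CPM.

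The difference between Wnt4+ Lhx1- and Six2+ Wnt4- cells was present on both sides of this split. Among Mki67- Top2a- cells, Cdkn1c changed by -0.46 ± 0.07 (adjusted p = 1.71e-05), Mest by -0.45 ± 0.05 (adjusted p = 4.12e-08) and H19 by 0.61 ± 0.07 (adjusted p = 2.93e-08). Among Mki67+ Top2a+ cells the same genes changed by -0.79 ± 0.05, -0.71 ± 0.04 and 0.69 ± 0.05 (adjusted p = 1.78e-20, 1.9e-19 and 1.83e-16). Grb10 did not pass among Mki67- Top2a- cells (adjusted p = 0.0586). Whether the change itself differs between dividing and other cells was not tested.

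Detection followed level. After thinning to 5000 UMIs per cell, Cdkn1c was found in 93.2% ± 3.49 of Lhx1+, 93.0% ± 4.41 of Wnt4+ Lhx1- and 98.5% ± 0.568 of Six2+ Wnt4- cells (mean ± SD, n = 3). H19 was found in 89.9% ± 6.29, 89.4% ± 0.56 and 79.9% ± 2.37 of the same groups, and Igf2 in 37.9% ± 12.8, 41.4% ± 5.38 and 27.3% ± 0.663. Unthinned, these shares were 97.8%, 99.5% and 99.95% for Cdkn1c, 98.9%, 98.9% and 93.6% for H19 and 70.3%, 75.8% and 56.4% for Igf2. Immune-marker cells, which should lack most of these RNAs, were taken as a gauge of free RNA. Free RNA, doublets and expression of their own cannot be told apart in them, and 3 were also Six2+ Wnt4- and 1 Wnt4+ Lhx1- cells. In 74 such cells at a median of 9374 UMIs, the thinned share was 21.4% ± 10.8 for Cdkn1c, 33.6% ± 15.8 for H19 and 3.03% ± 5.25 for Igf2, all below the progenitor groups. Dlk1 was found in 5.84%, 6.06% and 3.53% of the progenitor groups in the same order, Meg3 in 13.3%, 13.6% and 14.9% and Plagl1 in 7.48%, 8.56% and 7.29%, against 0 of 69 thinned immune-marker cells for each, which allows a share of up to 4.35% by counting error alone. The Dlk1 shares are too near that limit to be told apart from it.

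Cells of 1 group differed widely in Cdkn1c. In Six2+ Wnt4- cells of library 1 the median was 22 UMIs per cell, the 10th and 90th percentiles were 8 and 50, and the highest cell had 200. On thinned counts its variance was 4.66, 6.04 and 5.92 times its mean in libraries 1, 2 and 3, above 99.87% to 99.95% of the genes found in 10% of cells, whose median was 1.02. The ratio was 2.46 to 2.995 for Nnat, 2.49 to 2.91 for Mest, 1.84 to 2.03 for H19 and 0.999 to 1.02 for Plagl1. A ratio of 1 is that of random sampling of molecules. At the same relative spread the ratio grows with the mean count, so a scarce gene such as Plagl1 stays near 1. Genes of like level were not set beside the members, so the rank of Cdkn1c also reflects its level.

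The split by direction was also seen cell by cell within Six2+ Wnt4- cells, though only weakly for Dlk1. These cells hold no Wnt4 UMI. Since 281 of the 413 Wnt4+ Lhx1- cells held only 1, cells with uncaptured Wnt4 may be among the Six2+ Wnt4- cells. Pearson's r was taken over the 2173, 2157 and 1681 cells of each library on log-scaled counts (10000 per cell) and averaged. All 10 pairs among Cdkn1c, Nnat, Mest, Peg3 and Grb10 had a positive r, of 0.12 to 0.48, and H19 with Igf2 had 0.30. All 10 pairs of one of these 5 genes with H19 or Igf2 had a negative r, of -0.35 to -0.03. Dlk1, also higher in Wnt4+ Lhx1- cells, had r of 0.07 to 0.08 with H19 and Igf2 and of -0.08 to -0.02 with the 5 genes. The highest pair was Cdkn1c with Mest (0.465 to 0.494 over libraries) and the lowest Cdkn1c with H19 (-0.415 to -0.288). On counts thinned to equal depth the signs stayed, with r of 0.06 to 0.33 within the 5 genes, 0.16 for H19 with Igf2 and -0.23 to -0.02 between them. Over all pairs of 8801 genes found in at least 10% of cells the median r was 0.0023 and the 5th to 95th percentile ran from -0.03 to 0.04. Those genes were not matched to the members by level, and scarce counts weaken r. Genes outside the members reached like sizes, such as Rspo3 (0.41) and Eif5a (-0.39) with Cdkn1c. Whether the member pairs stand out from genes of like level was not tested. The Six2+ Wnt4- cells of a library share that library, and their values share the scaling to each cell's total, so r is a description. The neighbours Dlk1 and Meg3 had an r of 0.08.

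In Wnt4+ Lhx1- cells the same 10 pairs had r of 0.30 to 0.60, H19 with Igf2 had 0.36 and the opposed pairs ran from -0.46 to -0.07. Within the Mki67- Top2a- cells of the Six2+ Wnt4- group the ranges were 0.08 to 0.37, 0.31 and -0.32 to -0.01, and within Mki67+ Top2a+ cells 0.13 to 0.52, 0.29 and -0.38 to -0.01. Lhx1+ cells were under 50 in every library and were not correlated.

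**Figure D5:**
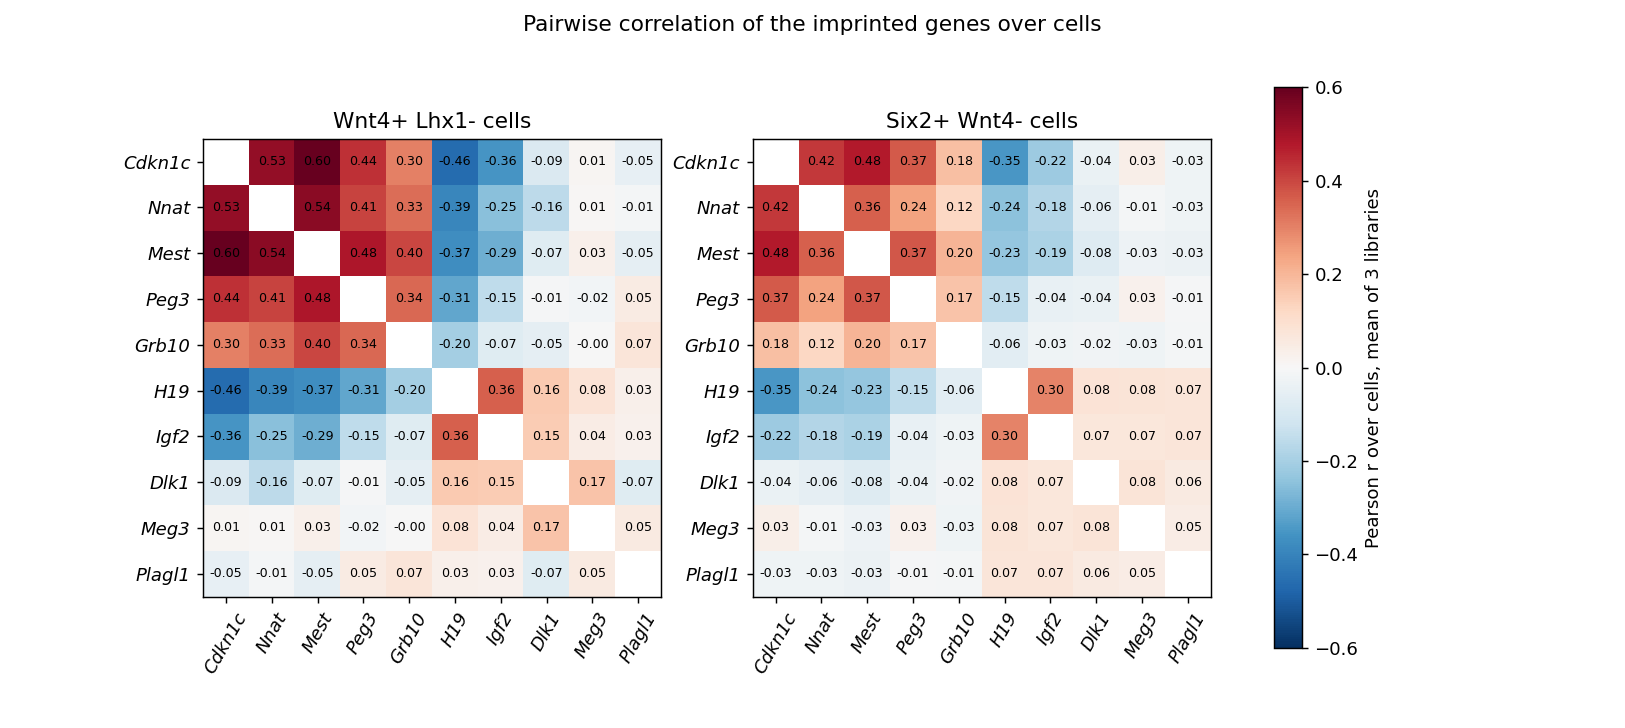
Pearson's r over cells for each pair of the 10 genes, as the mean of 3 libraries, in Wnt4+ Lhx1- (left) and Six2+ Wnt4- cells (right). Red marks positive and blue negative values. The block of Cdkn1c, Nnat, Mest, Peg3 and Grb10 is positive (0.12 to 0.48 on the right), and H19 and Igf2 are negative against it.

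Outside the members, the genes most alike in Six2+ Wnt4- cells, by the mean r over 3 libraries, overlapped among the 5. Fxyd6, which encodes a regulator of the sodium pump, was among the first 3 for Cdkn1c (0.40), Mest (0.39), Peg3 (0.30), Nnat (0.27) and Grb10 (0.19). Rspo3, which encodes a secreted enhancer of Wnt signals, led for Cdkn1c (0.41) and Peg3 (0.31), Tpm2 led for Nnat (0.31) and Eef1a1 for Mest (0.40). The most opposed genes reached like sizes and were also shared. Among the first 3 were H2afz for Cdkn1c (-0.38), Mest (-0.37) and Grb10 (-0.18), Eif5a for Cdkn1c (-0.39) and Peg3 (-0.35), and Ranbp1 for Mest (-0.39) and Nnat (-0.26). For H19 the first were Rps2 (0.30), a ribosomal protein gene, Lsp1 (0.27), which lies near it on chromosome 7, and Ppia (0.24), and for Igf2 they were Lsp1 (0.17), Ppia (0.17) and Hmgn2 (0.14). The highest values for Dlk1 (Anxa2, 0.11), Meg3 (Gpc6, 0.12) and Plagl1 (Dut, 0.07) were weak.

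Of 55 other imprinted genes listed, 32 could be tested, and in Wnt4+ Lhx1- against Six2+ Wnt4- cells 2 were higher and 4 lower, beside 10.2% of all genes past the threshold, with a median log2 change of -0.03. At an unadjusted p under 0.05 there were 15 of the 32, beside 2299 of 10240 genes. Their difference from the members was not tested. Zim1 (-1.03 ± 0.21, adjusted p = 0.00245) and Usp29 (-0.70 ± 0.13, adjusted p = 0.000576), the neighbours of Peg3, were lower with it, as was Sfmbt2 (-0.75 ± 0.20, adjusted p = 0.0174), and Inpp5f was higher (0.60 ± 0.16, adjusted p = 0.0148). In Lhx1+ against Six2+ Wnt4- cells 2 of 32 were higher (Ppp1r9a at 0.90 ± 0.23 and Trappc9 at 0.87 ± 0.25, adjusted p = 0.0235 and 0.0492) and Kcnq1ot1, the noncoding RNA of the Cdkn1c domain, was lower (-0.38 ± 0.09, adjusted p = 0.00851), with 13 of 32 at an unadjusted p under 0.05 beside 1720 of 10240 genes. In Mki67+ Top2a+ against Mki67- Top2a- cells 5 of 36 were higher and 13 lower, where 52% of all genes passed, so the count is near the background.

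Of the insulin-like growth factor axis, 14 of 19 genes were tested between Wnt4+ Lhx1- and Six2+ Wnt4- cells, where 10.2% of all genes passed. Pik3r1, a subunit of the kinase downstream of the receptors, was higher (0.71 ± 0.13, adjusted p = 0.000894), as was the binding protein gene Igfbp4 (0.58 ± 0.06, adjusted p = 6.6e-07), and Igfbp2 was lower (-0.44 ± 0.08, adjusted p = 0.000446). The receptor Igf1r did not pass (-0.23 ± 0.08, adjusted p = 0.0806). None of the 14 passed in Lhx1+ cells by edgeR, where 5.17% of all genes did. An unadjusted p under 0.05 was found for 1 of the 14, beside 1720 of 10240 genes. Of 13 tested cyclin, kinase and inhibitor genes of the cell cycle, 3 were higher and 0 lower in Wnt4+ Lhx1- cells. Of all genes tested, 4.86% were higher and 5.34% lower there. The 3 higher genes were Cdkn1a, the p21 relative of Cdkn1c (0.83 ± 0.21, adjusted p = 0.0128), Ccnd1 (0.47 ± 0.10, adjusted p = 0.00414) and Ccnd2 (0.40 ± 0.06, adjusted p = 0.000166). The third inhibitor of the family, Cdkn1b, did not pass (0.30 ± 0.22, adjusted p = 0.448). In Lhx1+ cells Ccnd1 was 2.02 ± 0.13 higher on the log2 scale (adjusted p = 2.27e-10), a gene that also served here as a marker of committing cells.

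Levels differed between tubes, and most of these calls rest on the block by library. Without the block, H19 alone of the members passed in Wnt4+ Lhx1- against Six2+ Wnt4- cells (adjusted p = 0.045), with 86 genes in all, and Cdkn1c had an adjusted p of 0.302 at the same log2 change of -0.75. The changes within each tube had the same sign in 3 of 3 libraries for the 8 members called.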

How the data were processed

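Per the labels' protocols, each of the 3 tubes pooled kidneys of several litters, and sorted cells were run on a 10x chip (version 2 chemistry). The authors deposited a matrix of counts, in which each value is a whole number of UMIs of a gene in a cell. The authors used Cell Ranger 1.3.1 and mm10, per the submitters' processing notes. No label names the barcode suffix of its sample. The members and gene lists were chosen with earlier results of these data known.

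Cells needed at least 1000 genes, at most 10% mitochondrial and at most 1% haemoglobin UMIs. No doublet caller was run, so doublets are taken as still present, and the 6% of cells with the most UMIs were left out as an alternative. Groups are disjoint, with Lhx1+ taken first, then Wnt4+. UMIs were summed per library and group (3 sums a group) and tested with edgeR 4.0.16 in R 4.3.3 (TMM, filterByExpr, library as block, since the groups of a library come from 1 tube). SE is the size of the log2 change over the square root of F. DESeq2 1.42.0 was an alternative. Scripts were tested on simulated data. CPM are UMIs per 1000000 of the summed counts, and levels are not compared between genes, whose lengths differ. The genes named beside the members are, per list and comparison, up to 4 past the threshold with the largest change and 1 direction in all libraries, and the 3 most correlated genes of each member. Igf1r, Cdkn1b, the most opposed genes and the genes of the cell groups were named outside this rule. The small number of Lhx1+ cells limits precision there.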

Additional observations from a re-analysis of the deposited data

How the results depend on the processing

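Each test was repeated under the alternatives listed for it, 5 of them chosen after seeing the data (the splits by Mki67 and Top2a, Six2 required of Lhx1+ cells, and 2 filters on cells with ureteric or stromal genes). In Wnt4+ Lhx1- against Six2+ Wnt4- cells, 1045 genes passed, against 86 without the replicate block, 326 by DESeq2, 347 on thinned cells, 142 and 422 in cells without and with Mki67 and Top2a, and 269 to 1211 leaving out a library. Members past the threshold were 8, 1 without the block and 6 to 8 otherwise. In Lhx1+ against Six2+ Wnt4- cells, 529 genes passed, against 822 with no filter on low counts, 190 without the replicate block, 64 on thinned cells, 199 without the cells with the most UMIs, 186 and 330 without cells of the ureteric and the endothelial list, 2 without Mki67 and Top2a, 81 with Six2 required, and 118 to 759 leaving out a library. Members past it were 7, 1 without the block, 0 without Mki67 and Top2a, and 4 to 8 leaving out a library. In Lhx1+ against Wnt4+ Lhx1- cells, 118 genes passed, against 259 with no filter, 69 without the replicate block, 12 on thinned cells, 54 without the cells with the most UMIs, 34 without ureteric-marker cells, 3 and 192 without and with Mki67 and Top2a, 20 with Six2 required, and 35 to 162 leaving out a library. Members past it were 0, 1 without cells with barcodes rich in A and T, 1 with 2 UMIs required, 4 with Mki67 and Top2a, and 0 to 5 leaving out a library. Of the members' 217 values there, 61 had the other sign. In Mki67+ Top2a+ against Mki67- Top2a- cells, 6330 genes and 9 members passed, against 2846 and 1 without the block, 3121 by DESeq2 and 3954 on thinned cells. Some log2 values took the other sign. In Wnt4+ Lhx1- cells, Meg3 was at -0.24 to 0.0012 leaving out a library, 0.15 on thinned cells, 0.062 without the cells with the most UMIs and 0.025 without Mki67 and Top2a, and Plagl1 at -0.15 to 0.11 leaving out a library, 0.16 on thinned cells and 0.048 with 2 UMIs. In Lhx1+ cells, Meg3 was at -1.17 to 0.15 leaving out a library, 0.073 on thinned cells, 0.10 without the cells with the most UMIs, 0.049 without ureteric-marker cells and 0.20 with 2 UMIs. There Plagl1 was at -0.15 to 0.36 leaving out a library, -0.19 without stromal-marker cells, -0.44 without cells of the endothelial list, -0.070 with 2 UMIs, -0.16 without collagen, Lum or Pdgfra cells, -0.15 with Mki67 and Top2a and -0.013 with Six2 required, where Dlk1 was at -0.23. The cause was not tested. The median detection of the members in Six2+ Wnt4- cells was 96.0% and 82.3% thinned. The r of Cdkn1c with Mest was 0.48 and 0.32 thinned, and with H19 -0.35 and -0.23 thinned. Lhx1+ cells numbered 19 to 31 a library, which limits what could be detected.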

Other observations

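Cells with none of Six2, Wnt4 and Lhx1 and no immune markers entered no comparison. In libraries 1, 2 and 3, Meg3 stood at 51.5, 100.7 and 59.5 CPM in these cells and Dlk1 at 10.7, 46.9 and 22.3 CPM. In Six2+ Wnt4- cells the same genes stood at 36.6, 48.0 and 34.9 CPM and at 6.89, 11.5 and 6.44 CPM. In the 74 immune-marker cells Cdkn1c stood at 147, 32.7 and 212 CPM, Mest at 209, 32.7 and 257 CPM and H19 at 125, 229 and 82.0 CPM, in the order of the libraries.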
